A study of Mus musculus with 8 samples.

Results

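The granins are acidic proteins stored in the dense-core granules of endocrine cells and neurons, and 5 of their genes are described here: *Chga* (chromogranin A), *Chgb* (chromogranin B), *Scg2* (secretogranin II), *Scg3* (secretogranin III) and *Vgf* (the nerve growth factor inducible granin). They were chosen by name, with earlier results of these data known. Each was found through the RefSeq accession of its probe, and all 5 are among the 19751 genes that the array names, with 1 probe each among 39429. The cells were AtT20, a mouse line grown from a corticotroph tumor of the pituitary, which secretes ACTH. All of them were kept for 48 hr in DMEM with stripped serum, 4 samples without agonist (control) and 4 samples with 10 μM HX630, a synthetic agonist of the retinoid X receptors (RXRs). RNA of each sample was hybridized to its own 1-color Agilent array. The line is a single tumor line, the labels call the samples replicates without saying whether they were separate cultures, and p-values therefore measure the spread between these samples, which may be technical.

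Granins enter the lumen of the trans-Golgi network, where they aggregate in the presence of calcium and carry hormone precursors such as POMC, the precursor of ACTH, into the forming granule. Prohormone convertases then cut both the hormone precursors and several granins into peptides that are released together. Granin genes are active in most endocrine cells, and their proteins serve as markers of neuroendocrine tumors. The promoters of several granin genes are known to carry a cyclic AMP response element (CRE), the site bound by CREB and related factors.

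Of the 5 granins, RefSeq sequences of the start region on build GRCm38.p6 were at hand for 4, *Chga*, *Chgb*, *Scg2* and *Scg3*, while *Vgf* had no entry. They are printed because these genes share CRE-like letters close to the start yet differed in their change with HX630. Each line holds the 120 bases before the transcription start, 5′ to 3′ on the strand of the gene, and capitals mark TGACG on either strand and TATAA. The stretches lie at chr12:102554821-102554940 on the plus strand for *Chga*, chr2:132781522-132781641 on the plus strand for *Chgb*, chr1:79440027-79440146 on the minus strand for *Scg2* and chr9:75684057-75684176 on the minus strand for *Scg3*.
Chga: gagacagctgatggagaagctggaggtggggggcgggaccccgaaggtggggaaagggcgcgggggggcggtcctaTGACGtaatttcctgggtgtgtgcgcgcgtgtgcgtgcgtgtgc
Chgb: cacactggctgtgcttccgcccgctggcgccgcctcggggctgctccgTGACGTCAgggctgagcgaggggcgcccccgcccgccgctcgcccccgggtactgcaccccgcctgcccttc
Scg2: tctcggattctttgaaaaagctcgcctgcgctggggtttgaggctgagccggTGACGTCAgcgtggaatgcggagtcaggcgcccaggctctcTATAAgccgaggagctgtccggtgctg
Scg3: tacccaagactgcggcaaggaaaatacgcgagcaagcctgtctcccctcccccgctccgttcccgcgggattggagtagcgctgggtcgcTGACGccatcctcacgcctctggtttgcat

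The complete CRE palindrome TGACGTCA began 72 bases before the start of *Chgb* and 68 bases before that of *Scg2*. In the 250 bases before the start it was held by 508 of 32851 RefSeq promoters (1.55%). *Chga* held its first 6 letters, TGACGT, from 44 bases before the start, as did 6.47% of all promoters on either strand. *Scg3* held only the 5 letters TGACG, from 30 bases before the start, as did 17.8%. These searches overlap, since a promoter with the palindrome also holds both shorter strings. TATAA was found in *Scg2*, 27 bases before the start, and in 22.8% of all promoters. The AP-1 letters TGANTCA were in none of the 4 and in 6.75% of all promoters. Such matches describe letters, not occupied sites.

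Signals are given as the processed intensity on the log2 scale, less the 75th percentile of that array, so that 0 stands for the 75th percentile and a change of -1 for a signal cut to 50%. The signal of a probe also depends on its sequence, so only changes, not levels, are compared between genes. A probe was called when limma gave an adjusted p below 0.01, over all 28538 probes tested, and a fold change above 1.5, which is 0.585 on the log2 scale. All 5 granin probes were well above background on all 8 arrays, none was saturated, and all 5 were tested. Over the whole array, limma called 2131 probes higher and 3182 lower with HX630, 7.47% and 11.2% of those tested, so that 40.1% of the calls were higher. This share was 51.6% with the median of each array, 49.9% with quantile normalization, 68.5% with scaling to the spike-in control probes and 31.8% with normexp background correction. The 4 control arrays lay on 1 slide with its own scan and the 4 HX630 arrays on another, so the treatment cannot be told apart from the slide or the scan. In RNA from whole cultures, fewer granin-expressing cells and less RNA per cell cannot be told apart either.

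HX630-treated cells had less *Vgf*, *Scg2* and *Scg3* mRNA than control cells. These 3 granins were called lower, 3 of 5 beside 11.2% of all probes tested. *Vgf* fell to 12.3%, *Scg2* to 37.5% and *Scg3* to 59.0% of the control signal. *Chga* and *Chgb*, the chromogranins proper, were at 76.5% and 87.7% and were not called. The median log2 fold change of the 5 granins was -0.76, beside -0.034 for all 15313 genes tested.

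**Figure D1:**
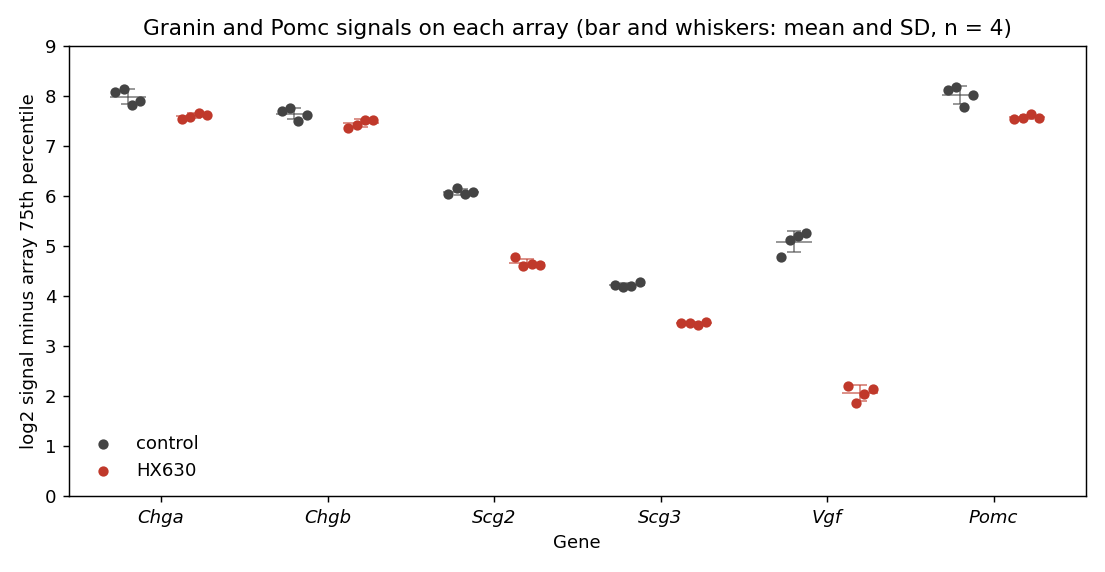
Signal of each granin and of *Pomc* on each of the 8 arrays, as log2 processed intensity less the array's 75th percentile (y axis), with 4 control arrays in grey and 4 HX630 arrays in red and the mean ± SD of each group. The groups are far apart for *Vgf*, *Scg2* and *Scg3*, close to each other for *Chga* and *Pomc*, and overlapping for *Chgb*.

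*Vgf* encodes a precursor of several secreted peptides that is induced by neurotrophins and by neuronal activity. Its log2 signal was 4.78, 5.12, 5.19 and 5.27 on the control arrays and 2.21, 1.86, 2.04 and 2.15 on the HX630 arrays. The lowest control array was 2.57 above the highest HX630 array. The group means were 5.09 ± 0.21 (SD, n = 4) and 2.06 ± 0.15 (SD, n = 4), so that the log2 signal of *Vgf* fell by 3.03 (standard error 0.12, 95% interval -3.31 to -2.75, limma adjusted p = 6.26e-07). This was an 8.16-fold lower signal, the 103rd change in size among all probes tested. In intensity, the control arrays ranged from 36710 to 68170 and the HX630 arrays from 6672 to 8416. Control replicate 1 had the lowest *Vgf* signal of its group on both scales.

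*Scg2* encodes the precursor of secretoneurin. Its log2 signal was 6.03, 6.16, 6.04 and 6.07 on the control arrays and 4.79, 4.61, 4.63 and 4.62 on the HX630 arrays. The groups were 1.25 apart at their nearest arrays, and HX630 replicate 1 was the highest of the treated arrays. *Scg2* fell by 1.41 on the log2 scale, from 6.08 ± 0.056 (SD, n = 4) to 4.66 ± 0.084 (SD, n = 4; standard error 0.052, 95% interval -1.54 to -1.29, limma adjusted p = 4.74e-07).

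*Scg3* encodes a granin that binds chromogranin A and the cholesterol-rich membrane of the granule. Its log2 signal was 4.22, 4.19, 4.19 and 4.28 on the control arrays and 3.47, 3.46, 3.42 and 3.49 on the HX630 arrays. Its SDs were the smallest of the 5 granins, at 0.040 and 0.027 (n = 4 each), and the groups were 0.70 apart at their nearest arrays. The log2 signal of *Scg3* fell by 0.76 (standard error 0.034, 95% interval -0.84 to -0.68, limma adjusted p = 1.08e-06). Its fold change of 1.70 is close to the threshold, and with scaling to the spike-in probes the log2 fold change was -0.54 (adjusted p = 1.09e-04), under that threshold.

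*Chga* encodes the granin first found in chromaffin granules and used in the clinic as a serum marker. Its log2 signal was 8.09, 8.15, 7.81 and 7.91 on the control arrays and 7.55, 7.59, 7.66 and 7.62 on the HX630 arrays. The groups did not overlap, but their nearest arrays were only 0.15 apart, and groups that do not overlap with HX630 lower were found for 31.3% of all probes tested. The log2 fold change was -0.39 (standard error 0.078, 95% interval -0.57 to -0.21, limma adjusted p = 0.00329), below the adjusted p threshold and short of the fold change threshold. Without a fold change threshold *Chga* is called, as are 25.4% of all probes in the same direction. The log2 fold change of *Chga* was -0.12 with quantile normalization (limma adjusted p = 0.0198) and -0.17 with the spike-in probes (limma adjusted p = 0.0672).

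*Chgb*, which encodes a granin abundant in endocrine granules, was spotted 10 times on each array. The means of its spots were 7.70, 7.75, 7.50 and 7.62 on the control arrays and 7.37, 7.42, 7.52 and 7.51 on the HX630 arrays. The groups overlapped, since HX630 replicates 3 and 4 lay above control replicate 3. The log2 fold change was -0.19 (standard error 0.065, 95% interval -0.34 to -0.040, limma adjusted p = 0.0355). An exact permutation test, two-sided, gave p = 0.0857 for *Chgb* and p = 0.0286, the smallest that 70 regroupings of the arrays allow, for each of the other granins. The SD between the 10 spots of an array was 0.093 to 0.19, and the standard error of their mean was 0.029 to 0.062. The SD of these means between arrays was 0.11 in the control and 0.075 with HX630. The direction of *Chgb* turned with the scaling, to 0.091 with quantile normalization and 0.029 with the spike-in probes.

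**Figure D2:**
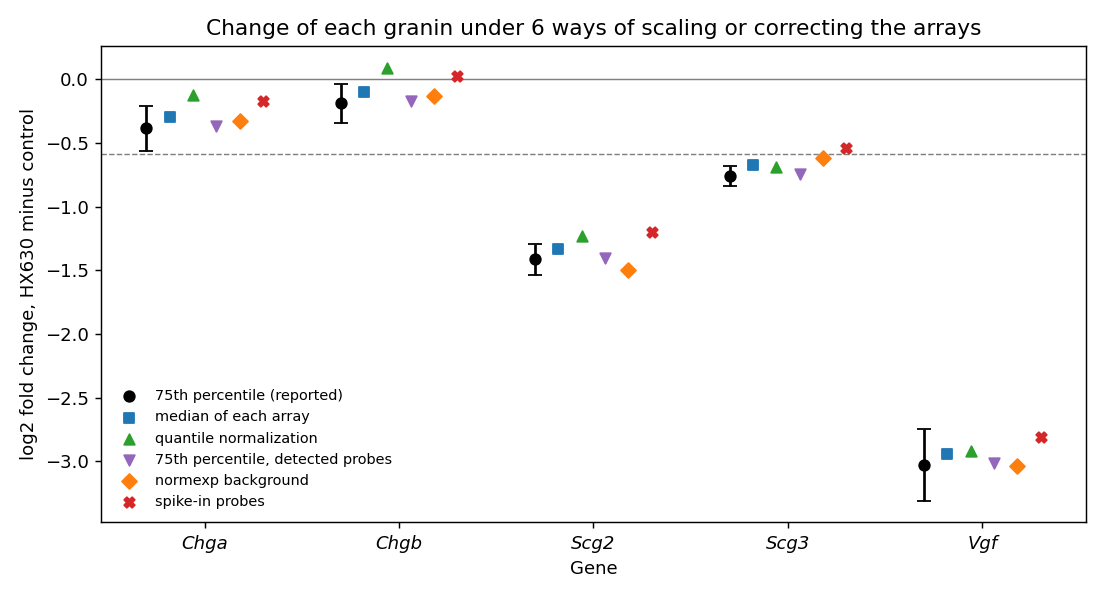
Log2 fold change of each granin, HX630 minus control (y axis), as reported (black, with its 95% interval) and under 5 other ways of scaling or correcting the arrays. The dashed line marks a 1.5-fold lower signal. *Vgf* and *Scg2* lie below it throughout, *Scg3* lies above it with the spike-in probes at -0.54, and *Chgb* lies above 0 with quantile normalization (0.091) and the spike-in probes (0.029).

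The granins changed unequally. The difference of 2 log2 signals on the same array is free of a common scaling factor, and it was compared between the groups for all 10 pairs of granins by exact permutation tests, two-sided, with Benjamini-Hochberg adjustment over the 10. In the exact permutation test all 10 pairs had p = 0.0286 and adjusted p = 0.0286. These differences kept their direction under quantile normalization, which does not scale all probes alike, and under normexp background correction. The brightest probes did not follow the scale of the array. From control replicate 1 to 3 the intensity at the 75th percentile rose from 1335 to 1863 and *Scg3* from 24830 to 34100. *Chga* rose only from 363500 to 418900 and the brightest spike-in probe from 348300 to 398100. How far this enters the differences of *Chga*, *Chgb* or *Pomc* from *Scg2*, *Scg3* or *Vgf* was not tested. The change of *Vgf* was 1.61 (standard error 0.12) below that of *Scg2*, and that of *Scg2* was 0.65 (standard error 0.057) below that of *Scg3*. *Scg3* in turn was 0.37 (standard error 0.092) below *Chga*, and *Chga* was 0.20 (standard error 0.032) below *Chgb*. The step from *Scg3* to *Chga* was the least firm: with any 1 of HX630 replicates 1 to 4 left out, the difference was 0.34 to 0.40 and its exact permutation adjusted p was 0.0571. From the most to the least lowered, the order was thus *Vgf*, *Scg2*, *Scg3*, *Chga* and *Chgb*.

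The granins were also set against *Pomc*, whose product is the cargo of the granules in corticotrophs. *Pomc* itself had log2 signals of 8.13, 8.19, 7.78 and 8.01 on the control arrays and 7.55, 7.55, 7.63 and 7.56 on the HX630 arrays. Its log2 fold change was -0.45 (standard error 0.086, limma adjusted p = 0.00241), short of the fold change threshold. Over the alternatives the change of *Pomc* ranged from -0.54 to -0.19. Within arrays, *Vgf*, *Scg2* and *Scg3* were lowered more than *Pomc*, with differences in log2 fold change of -2.57, -0.96 and -0.31. *Chgb* differed from *Pomc* in the other direction, by 0.26. For these 4 granins the exact permutation test, two-sided, gave an adjusted p of 0.0357 over the 5 tests. For *Chgb* it was 0.0714 with normexp background correction, at a difference of 0.16. For *Scg3* it was 0.0714 with any 1 of HX630 replicates 1 to 4 left out, at differences of -0.32 to -0.28. For *Chga* the difference was 0.067 (standard error 0.030, exact permutation p = 0.0857), and it was 0.090 (exact permutation adjusted p = 0.0286) without control replicate 3 and -0.038 with normexp background correction.

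*Chga*, *Chgb* and *Pomc* lie near the upper end of the signal range, where a control RNA that was added to every sample can be set beside them. The brightest spike-in probe, with 32 spots per array and intensities of 348300 to 398100, had log2 signals of 8.03, 8.02, 7.74 and 7.84 on the control arrays and 7.65, 7.64, 7.68 and 7.64 on the HX630 arrays. After scaling to the 75th percentile this added RNA was thus lower by 0.26 on the HX630 arrays, although it does not come from the cells. The other spike-in probes were lower as well, whatever their signal: over the 8 of 10 that were above background on all arrays, the log2 fold changes were -0.27 to -0.16. Its deviations from the group means ran with those of *Chga* (r = 0.96 over 8 arrays) and *Chgb* (r = 0.83), and those of *Chga* and *Chgb* ran with each other (r = 0.93), all 3 measured and scaled on the same arrays. For *Scg2*, *Scg3* and *Vgf* the same r was 0.22, -0.22 and -0.57.

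In an alternative added after the data were seen, each granin was measured against this spike-in probe on the same array. *Vgf*, *Scg2*, *Scg3* and *Chga* were then lower on each HX630 array than on each control array. The differences were -2.77, -1.16, -0.51 and -0.13, each with an exact permutation adjusted p of 0.0357 over the 5 tests. The share of all probes that separate in this way against the spike-in probe is not given. In the reported scaling it was 31.3% of all probes tested. Without that share, the separation of *Chga* at -0.13 cannot be told apart from that of probes in general. *Chgb* was at 0.065 (exact permutation p = 0.2), with overlapping groups. The values that follow are in the reported scaling, not against the spike-in probe. Among the 79 probes tested with a mean log2 signal of 7 to 9.5, the range that holds *Chga*, *Chgb* and *Pomc*, the median log2 fold change was -0.27 with quartiles of -0.37 and -0.19. Of these probes 7.59% were called lower, none was called higher, and 60.8% had all HX630 arrays below all control arrays. Among the 1542 probes from 4 to 6.5 the median was -0.13.

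**Figure D3:**
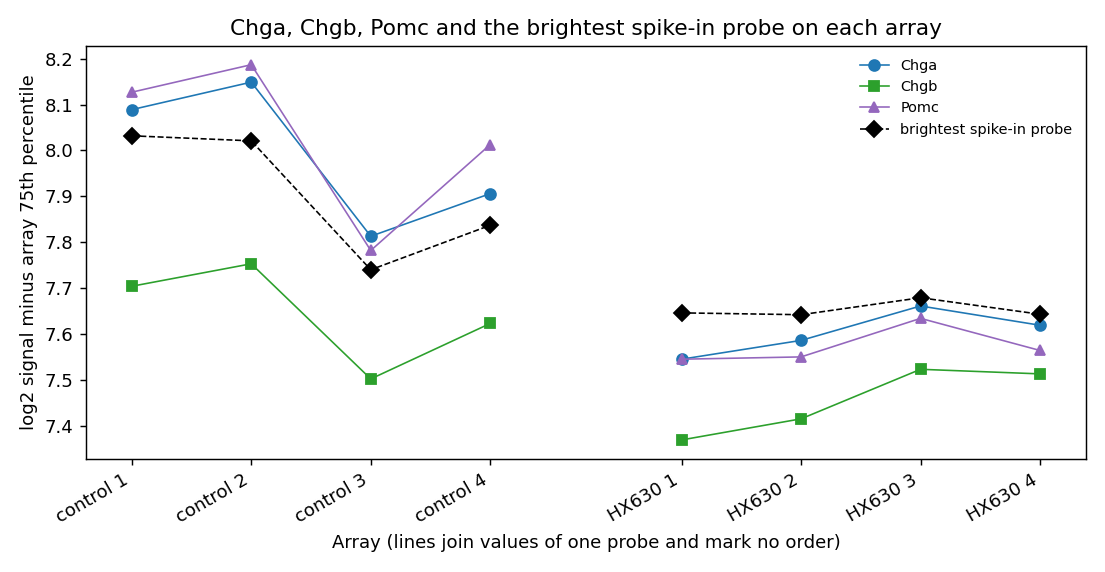
Log2 signal less the array's 75th percentile (y axis) of *Chga*, *Chgb*, *Pomc* and the brightest spike-in probe on each of the 8 arrays (x axis). All 4 probes are lowest among the controls in control replicate 3, and the mean difference between *Chga* and the spike-in probe on the same array goes from 0.082 in the control to -0.050 with HX630.

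The enzymes that cut and finish granins and hormones, together with 2 granin-like proteins of the granule, were compared next. All 8 genes of this list were tested, and 4 were called lower and 1 higher, beside 11.2% and 8.39% of all genes tested, with a median log2 fold change of -0.65. *Pam*, which amidates the ends of peptides, fell by 2.14 (standard error 0.091, limma adjusted p = 8.41e-07). *Pcsk1*, the convertase that releases ACTH from POMC, fell by 2.06 (standard error 0.052, limma adjusted p = 1.26e-07). *Scg5*, also called 7B2, fell by 1.09 (limma adjusted p = 6.62e-07), while *Pcsk2*, the convertase that 7B2 helps to mature, rose by 0.98 (limma adjusted p = 5.96e-07). *Cpe*, the carboxypeptidase that trims the cut ends and the last of the 5 called, fell by 0.96 (limma adjusted p = 3.18e-05) and, like *Cpd*, was named after its value was seen. These 5 genes kept their calls in all 23 alternatives. *Pcsk1n*, which encodes the convertase inhibitor proSAAS, had a log2 fold change of -0.11 (0.11 with the spike-in probes), *Furin* one of 0.20 and *Cpd* one of -0.33, and none of these was called.

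Of 22 genes for other peptide precursors stored in granules, 13 were tested, among them *Pomc*. Of these, 6 were called lower with HX630 and 1 higher, beside 11.2% and 8.39% of all genes tested, and the median log2 fold change was -0.60. With the spike-in probes 3 were called lower. *Uts2*, the urotensin precursor, fell by 5.73 (standard error 0.26, limma adjusted p = 1.09e-06), and *Cck*, the cholecystokinin precursor, by 1.63 (limma adjusted p = 9.62e-07). *Nmb* fell by 0.81 and *Adcyap1* by 0.74, although *Adcyap1* was not called with quantile normalization (-0.58), the spike-in probes (-0.52) or normexp (-0.61). *Cartpt* (-0.68) and *Sst* (-0.60), named after their values were seen, complete the 6. *Cartpt* was not called with the spike-in probes (-0.46). *Sst* was not called without control replicate 1 (-0.58) or HX630 replicate 4 (-0.57), nor with outlier spots kept (-0.43), the median (-0.52), quantile normalization (-0.50) or the spike-in probes (-0.39). The 1 gene called higher, *Penk* (0.69), was above background on 1 of the 4 control arrays. It was not called without control replicate 2, 3 or 4 or any HX630 array (0.60 to 0.74), and its direction turned with normexp (-0.054). *Calca* was at -0.44 and not called, but its other probe was at -1.9.

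Genes that build the granule and those of its membrane were counted separately. None of the 17 genes for granule biogenesis, such as those of the EARP and GARP tethering complexes and of RAB2, was called by limma or by the methods' t-test at these thresholds, at a median of 0.10. Of all genes tested, limma called 8.39% higher and 11.2% lower. The fold change threshold decided that none of the 17 was called, since 10 of them had an adjusted p below 0.01, 6 higher and 4 lower. Without that threshold, 5763 of all 28538 probes tested were called higher and 7245 lower. Of the 17 genes, 13 had an unadjusted p below 0.05, and the share of all probes at that level is not given. With the spike-in probes 1 was called higher, and with normexp or array weights 1 lower. The brightest of them, *Arf1* and *Hid1*, were at -0.19 and -0.054, and both were above 0 with the spike-in probes. Of 26 genes tested for the granule membrane and exocytosis, 5 were called higher and 2 lower, beside 8.39% and 11.2% of all genes tested, and the median of -0.035 was close to the -0.034 of all genes. *Slc18a1*, a vesicular monoamine transporter, rose by 2.26 (standard error 0.049, limma adjusted p = 9.09e-08), and *Sytl4*, which encodes granuphilin, a protein that tethers granules to the plasma membrane, by 1.38 (limma adjusted p = 4.63e-07). *Rab3d*, a small GTPase of secretory granules, rose by 0.74, and *Cadps* (0.65) and *Syt9* (0.64), named after their values were seen, were also called higher. *Ptprn*, a transmembrane protein of the granule, fell by 0.77 and *Syt7*, a calcium sensor also named after its value was seen, by 0.72. With the spike-in probes neither was called (-0.55 and -0.50), and the count became 6 higher and 0 lower. *Dnajc5* (-0.12) and *Cyb561* (-0.38) were not called.

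**Figure D4:**
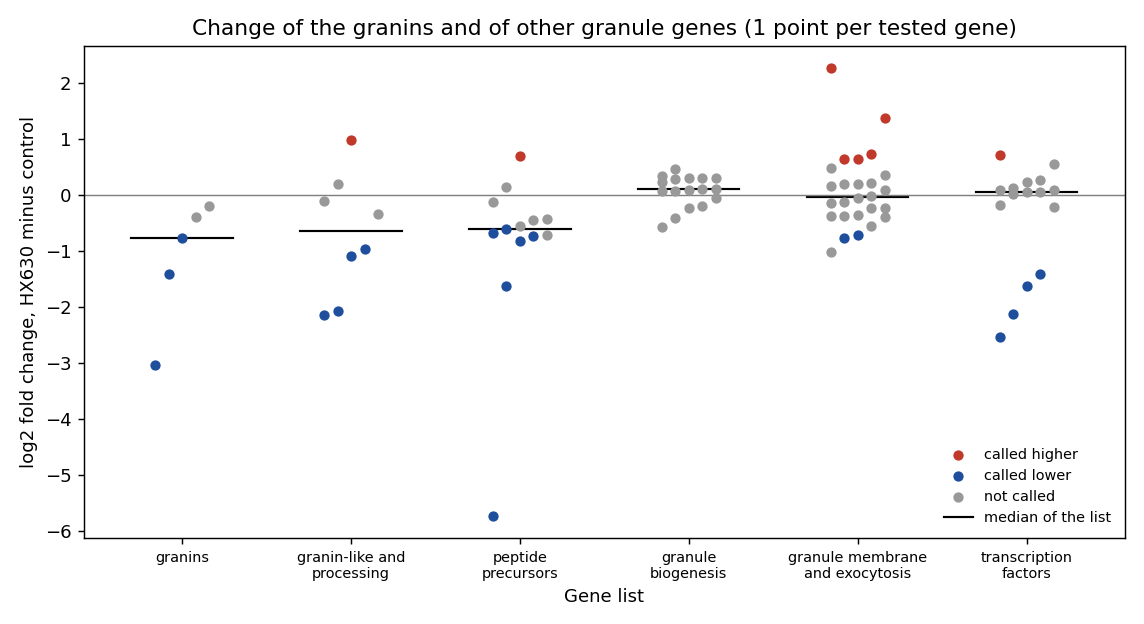
Log2 fold change, HX630 minus control (y axis), of every tested gene of the granin list and 5 other lists (x axis), with called genes in color and the median of each list as a bar. The medians are -0.76 for granins, -0.65 for granin-like proteins and processing enzymes and -0.60 for peptide precursors, against 0.10 for biogenesis, -0.035 for the granule membrane and 0.056 for transcription factors.

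Among 17 genes for factors known to act on granin promoters, or on neuroendocrine genes in general, 16 were tested, and 4 were called lower and 1 higher, beside 11.2% and 8.39% of all genes tested, at a median of 0.056. The probe of *Rest*, which encodes the repressor of neuronal genes, was not among those tested. *Creb1* was at 0.083 and *Atf1* at 0.056, and neither was called. These genes and *Neurod1* were named after their values were seen. The 4 called lower were *Fos* (-2.53, limma adjusted p = 9.79e-07), *Crem* (-2.13, 5.7e-08), *Fosl2* (-1.62, 4.65e-07) and *Fosl1* (-1.40, 1.02e-04), of which *Crem* encodes a relative of CREB and the others encode AP-1 subunits. *Fosl1* was above background on 4 of 4 control arrays but on 1 of 4 HX630 arrays, so the size of its change is uncertain. *Neurod1*, a factor of corticotroph and endocrine differentiation, rose by 0.72 (limma adjusted p = 1.43e-04). *Insm1* (0.27) and *Jund* (-0.19, and 0.034 with the spike-in probes) were not called. Of 337 tested genes with TGACGTCA in the 250 bases before the start, 10.1% were called lower and 5.34% higher, beside 11.1% and 8.21% of the 12195 tested genes with such a sequence, and their median log2 fold changes were -0.032 and -0.031. Of 746 tested genes with the AP-1 letters TGANTCA there, 14.2% were called lower and 8.58% higher, with a median of -0.077. No test was made of these shares.

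Over the 8 arrays, the genes whose values were most like those of a granin by Pearson correlation, among 15308 genes compared, were *Vegfb* and *Cd3eap* for *Vgf* (r = 0.9997 and 0.9992), *Prl2c1* and *Nfil3* for *Scg2* (0.9997 and 0.9996), and *Uap1l1* and *Ufsp1* for *Scg3* (0.9997 and 0.9993). Such an r follows mainly from the difference between the groups, and 2280, 2563 and 2437 genes had an r above 0.95 with these 3 granins. *Prl2c1* belongs to a family of near-identical genes, so its probe may not tell them apart. For *Chga* the most alike were *Rpl34* (r = 0.9955) and *Gapdh* (0.9936), with 170 genes above 0.95, and for *Chgb* *Exosc2* (0.9877) and *Gata5* (0.9867), with 19.

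The cells carried the defining genes of corticotrophs, *Pomc* and *Tbx19* (1.74 in the control, log2 fold change -0.37, not called), on all 8 arrays. Of 7 corticotroph markers 6 were tested, and *Avpr1b*, named after its value was seen, was not above background on any array. The summed linear signal of all 7, in units of the 75th percentile, was 301 to 376 in the control and 218 to 228 with HX630. The sum is carried by the brightest of them, and *Crhr1*, the receptor of corticotropin-releasing hormone (1.11, limma adjusted p = 5.11e-07, named after its value was seen), and *Neurod1* were called higher, against *Pcsk1* called lower. Of 12 markers of other pituitary lineages 6 were tested, and *Gh*, *Lhb*, *Pax7* and *Sox2* were above background on all 8 arrays. *Prl*, *Tshb*, *Cga* and *S100b*, named after their values were seen, were not above background on any array. All 12 summed to 0.753 to 0.93 in the control and to 0.461 to 0.546 with HX630, with *Gh* and *Sox2* called lower. Of 7 fibroblast markers 4 were tested, with *Dcn* called higher, and all 7 summed to 0.111 to 0.133 and 0.117 to 0.166. Of 8 blood cell markers 6 had a probe and 5 were tested, with *Csf1r*, *Cd3e* and *Hba-a1* called lower. Those with a probe summed to 2.93 to 3.57 and 1.35 to 1.56. The 5 granins summed to 527 to 624 and 395 to 426 on this scale, and the part of these markers in the granin changes was not tested. Some of these marker calls were weak. *Dcn* was not called without control replicate 2, 3 or 4 or any HX630 array (0.85 to 1.11) and was at 0.16 with normexp. *Hba-a1* was not called without control replicate 1, 2 or 3 or HX630 replicate 2, 3 or 4 (-1.12 to -0.88), and *Gh* (-0.58) and *Csf1r* (-0.50) were not called with the spike-in probes.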

How the data were processed

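Total RNA of 8 AtT20 samples, 4 control and 4 with 10 μM HX630 for 48 hr, was labeled with Cy3 and hybridized to 1 array each. The authors deposited the Feature Extraction 10.7.3.1 output of each array (the version is from the submitters' processing notes), with the background-corrected processed intensity, raw median intensities and quality flags of every spot. They also deposited a table of log2 values scaled to the 75th percentile of each array. The values calculated here lay within 0.01 of this table for all 39414 probes compared.

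The analysis used limma 3.58.1 under R 4.3.3. After removal of control spots and of outlier spots, the spots of a probe were averaged on the log2 scale, and the 75th percentile over the probes of an array was subtracted. Probes well above background on at least 4 of 8 arrays were tested with lmFit and eBayes, group only, with Benjamini-Hochberg adjustment over all probes tested. The brightest tested probe stood for a gene. The methods name a t-test with a fold change of 1.5 and a p of 0.01, and these thresholds were kept. Exact permutation tests used all 70 regroupings of the 8 arrays. The fit was checked on simulated data.

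Probes were named by RefSeq accession through a table on GRCm38.p6, which matched 66.1% of probes. The array design names another build, so coordinates are given for RefSeq start regions only. Named genes were the granins, *Pomc*, up to 4 called genes with the largest change and 2 bright genes not called per list, the 2 genes most alike each granin, and markers of cell types. Genes outside this rule are marked where they are named. From the list of transcription factors, 1 gene is not reported here. The granins and the lists were chosen with earlier results of these data known. The alternatives were other scalings, normexp with an offset of 16 on median spot intensities, the authors' log2 values, other filters, variance models, tests and thresholds, a block for the replicate number, and leaving out 1 array at a time. The small number of arrays limits the precision.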

Additional observations from a re-analysis of the deposited data

Results flagged for a closer look

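In the HX630 group, replicate 1 lay apart from the other 3 arrays for *Scg2*, at a log2 signal of 4.79 against their mean of 4.62, a gap that makes up 0.854 of the range over the 4 arrays. Without it the log2 fold change of *Scg2* was -1.46 in place of -1.41. The same array lay apart for *Pam*, at -1.53 against -1.80 and with the same ratio of 0.854, and the log2 fold change there was -2.21 without it in place of -2.14. Among 76 groups of 4 arrays, over 38 genes, these were the 2 found, where chance gives 3.8.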

How the results depend on the processing

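*Vgf* and *Scg2* kept direction and call in the 24 alternatives planned, and *Scg3* in all of these but the spike-in probes (-0.542). The added measure against the brightest spike-in probe has no call by limma. There all 3 kept their direction with an exact permutation adjusted p of 0.0357, and *Scg3* was at -0.506. With it included, *Vgf* ranged from -3.19 to -2.77 and *Scg2* from -1.5 to -1.16. *Chga* ranged from -0.446 to -0.121 and was called only without a fold change threshold (-0.387). *Chgb* turned to 0.091 with quantile normalization, 0.0287 with the spike-in probes and 0.0649 against the brightest of them, and was never called. The spike-in probes moved the median of all probes from -0.056 to 0.16, a shift common to all probes. The number of granins called was 2 to 4. With 1 array left out, *Chga* minus *Scg3* ranged from 0.324 to 0.437, *Scg3* minus *Pomc* from -0.37 to -0.234 and *Chga* minus *Pomc* from 0.0441 to 0.0899. Quantile normalization gave 0.567 for *Chga* minus *Scg3* and -0.497 for *Scg3* minus *Pomc*, where normexp gave 0.289 and -0.326. With normexp, *Chga* minus *Pomc* was -0.0375 and *Chgb* minus *Pomc* 0.159 (exact permutation adjusted p = 0.0714). Over all probes, 5763 were called higher and 7245 lower without a fold change threshold, 4145 and 1905 with the spike-in probes, and 1355 higher with normexp. The cause of these shifts was not tested.

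The replicate number is also the position on the slide. The deviations of same-numbered arrays correlated at 0.523, -0.00924, 0.242 and 0.381, and since 1 of the 4 was not above 0.1 the numbers were not taken as a pairing. Arrays 1 and 4 were best matched by their own number in both groups, and not every array was. With the number as a block, the same 3 granins were called, and the limma adjusted p was 0.0138 for *Chga*, in place of 0.00329, and 0.0826 for *Chgb*. With the block, 2209 probes were called higher and 3342 lower. Each group lay on its own slide, and 4 arrays per group limit the precision.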
